A study of Homo sapiens with 6 samples.

Results

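The genes described here sense foreign RNA inside a cell or act against it, and they were followed in Huh7 cells, a line grown from a human hepatoma. They are DDX58, IFIH1, DHX58, EIF2AK2, TLR3, MAVS, OAS1, OAS3 and TMEM173. These 9 genes were taken by their symbols from a table of 50868 genes, by a rule that uses no measured value. The list of symbols was drawn up with earlier results of these data known. The study tested hsa_circ_0098181, a circular RNA whose host gene is SOX5. Its overexpression plasmid was given to the cells behind 3 libraries, called the overexpression libraries below, and the control plasmid to those behind the other 3 libraries. Both groups were grown in DMEM with 10% fetal bovine serum and received Lipofectamine 2000, a lipid reagent that carries DNA into cells, and RNA was taken 48 h after transfection. Untransfected cells were not analysed here, so the comparison gives the difference between the plasmids and not the response to transfection itself. The question it addresses is whether cells given the overexpression plasmid differ from cells given the control plasmid in the RNA levels of these genes.

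Cells recognise viral RNA by its ends, its length and its paired strands. The products of DDX58 (RIG-I), IFIH1 (MDA5) and DHX58 (LGP2) are related helicases of the cytosol that bind such RNA. RIG-I and MDA5 then pass the signal to MAVS, an adaptor on mitochondria, from which kinases activate IRF3 and NF-kappaB and switch on interferon genes. TLR3 binds RNA with paired strands in endosomes, and TMEM173 (STING) relays the signal of a DNA sensor, so neither of them is a cytosolic RNA sensor in the strict sense. EIF2AK2 (PKR) is a kinase that stops translation when it binds paired RNA, and OAS1 and OAS3 make oligoadenylates, messenger molecules that lead to the breakdown of RNA. Most of these genes are themselves raised by interferon, which makes their RNA a readout of the pathway. Some circular RNAs are known to bind PKR or to be examined by RIG-I.

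Interferon acts on many of its target genes through the interferon-stimulated response element (ISRE), and this element is shown because it links the members to the signal that would raise them. Promoters of 300 bases were matched for 6 of the 9 members (RefSeq, GRCh38.p14), running from 250 bases before the transcription start to 50 after it. They were searched on both strands for GAAANNGAAA, and matches were allowed to overlap. The letters were found in IFIH1 (3 matches), OAS3 (2 matches), EIF2AK2 (1 match) and TLR3 (1 match), and not in the windows of MAVS and OAS1. The OAS1 window, chr12:112906712-112907011, holds little sequence before the start of the gene's coordinates at chr12:112906777. Its lack of a match therefore covers that window only. Of all 35116 promoters of this length, 3.57% held a match. The windows of 40 bases below run 5′ to 3′ along the gene, and the capitals mark the match nearest to the end of each promoter window. TLR3 carries it as the reverse complement. The windows are chr2:162318681-162318720 for IFIH1 and chr2:37156962-37157001 for EIF2AK2, both on the minus strand, and chr12:112938447-112938486 for OAS3 and chr4:186069137-186069176 for TLR3, both on the plus strand. Counted from the transcription start, the marked match begins at -21 in IFIH1, -6 in EIF2AK2, -12 in OAS3 and -4 in TLR3.
IFIH1: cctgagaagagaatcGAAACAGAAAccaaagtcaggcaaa
EIF2AK2: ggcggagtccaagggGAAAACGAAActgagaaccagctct
OAS3: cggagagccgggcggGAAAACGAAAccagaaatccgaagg
TLR3: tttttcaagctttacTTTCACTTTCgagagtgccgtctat
EIF2AK2 and OAS3 hold the same 10 bases within the match. A match describes the letters only and is not evidence that a factor binds there.

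Library totals ran from 11130902 to 14138262 gene counts, and mitochondrial genes held 6.32% to 9.29% of them, the highest share being that of control replicate 1. SOX5, which can be counted from reads of the delivered circle and so checks the labels, was at 2104 ± 258 CPM, the count scaled to the normalized library total, under overexpression and 35.8 ± 5.41 CPM in the controls (SD, n = 3 each). All 8 hepatocyte and hepatoma markers were detected, and their summed level was 29708 to 32649 CPM against 28972 to 34906 CPM. The 5 immune markers summed to 492 to 535 CPM under overexpression and 440 to 477 CPM in the controls. LYZ alone gave 497 and 449 CPM of these on average, and 4 of the 5 exceeded 3 counts in some library. Of 3 endothelial markers only PECAM1 exceeded 3 counts, CDH5 was at 0, and the sums were 54.4 to 55.6 CPM against 46.9 to 59.1 CPM. The 5 fibroblast markers were low, with sums of 19.96 to 22.0 CPM against 19.9 to 23.1 CPM. Each exceeded 3 counts in some library, but DCN did so in control replicate 1 only, with 5 counts. The part of these markers in the results was not tested. Fewer cells that express a gene and less RNA per cell cannot be told apart in such bulk libraries. The labels do not say that the replicates were separate cultures, so p-values measure the spread between these libraries, which may be technical.

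No member passed the test of overexpression against control. 8 of the 9 members had enough counts to be tested, and DHX58 did not. At an adjusted p under 0.05 by edgeR's quasi-likelihood test (two-sided, Benjamini-Hochberg adjustment over 15055 genes), 0 of the 8 were called, while 0.0399% of all genes tested were. At an unadjusted p under 0.05 there were also 0 of 8, against 5.5% of all genes tested. DESeq2 called 0 of the 8, and limma on FPKM values called 0 of those it could test. For 0 of the 8 were the 3 values of each group apart from each other, whereas the groups did not overlap for 12.9% of all genes tested. Log2 fold changes ran from -0.16 to 0.15, with 7 below zero and 1 above, beside 7454 below and 7601 above over all genes tested. The median of the 8 members was -0.022, beside 0.0023 over all genes tested. Their median size without regard to sign was 0.058, beside 0.13. An exact two-sided permutation test of 3 against 3 values cannot give a p under 0.1, and for the 9 members it gave p from 0.3 to 1.0.

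**Figure D1:**
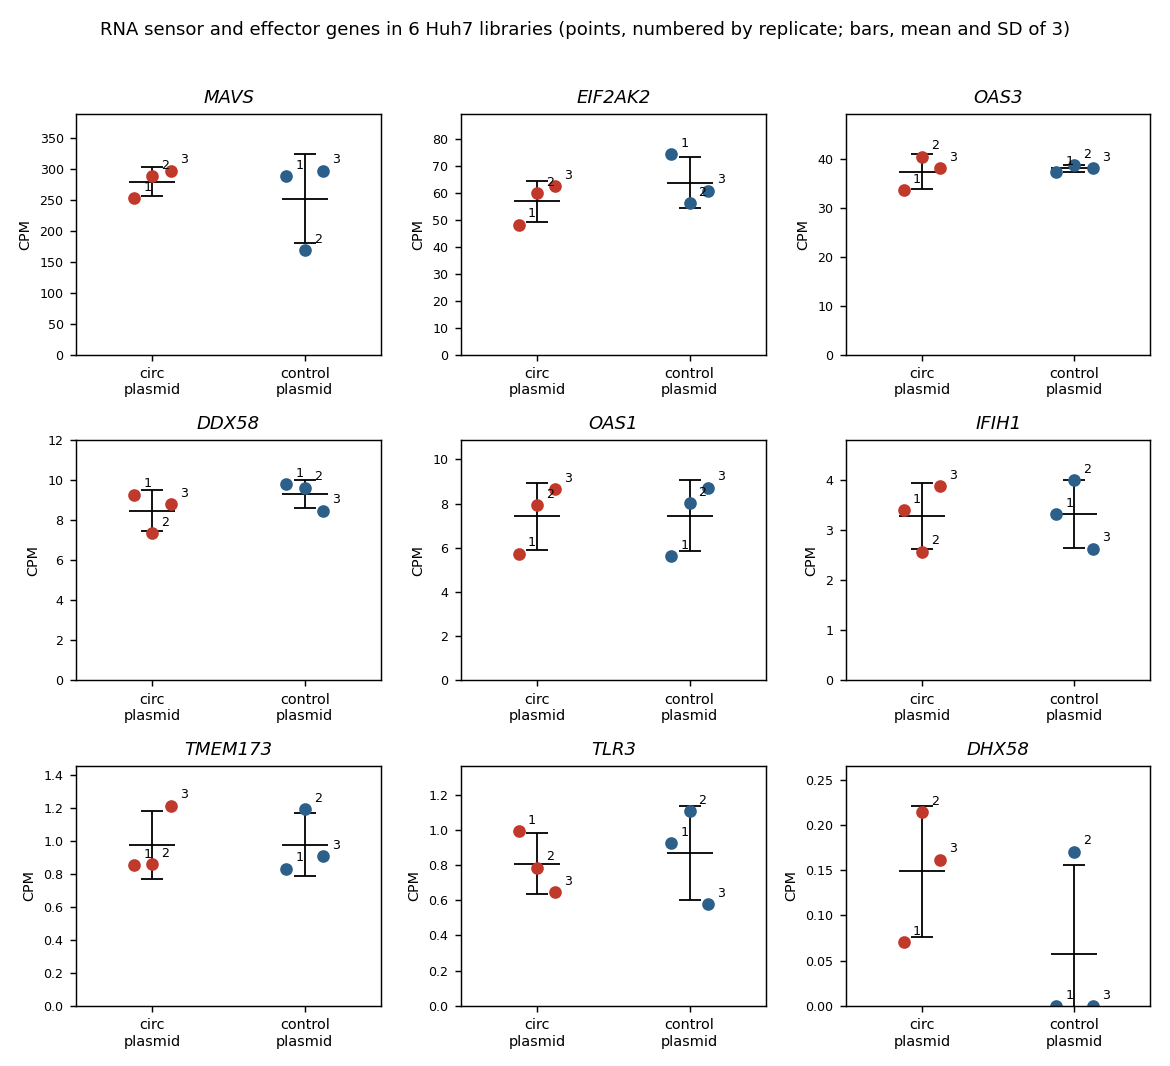
Level of each of the 9 genes in CPM (y axis, starting at 0) in the 3 overexpression and 3 control libraries (x axis). Points are libraries numbered by replicate and bars give the mean and SD of 3; the lower bar of the DHX58 controls is cut at 0. The groups overlap in all 9 panels, and MAVS in control replicate 2 lies lowest at 169.6 CPM.

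The RNA helicases were present at unequal levels. DDX58 (ENSG00000107201, chr9:32455705-32526324, minus strand, GRCh38) was at 9.27, 7.35 and 8.81 CPM in overexpression replicates 1 to 3 and at 9.78, 9.62 and 8.48 CPM in control replicates 1 to 3. The lowest value was that of overexpression replicate 2, and the groups overlapped. The means were 8.48 ± 1.00 and 9.29 ± 0.71 CPM (SD, n = 3 each), giving a log2 fold change of -0.13 with a 95% interval of -0.50 to 0.24 (edgeR adjusted p 0.871).

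IFIH1 (ENSG00000115267, chr2:162267079-162318703, minus strand) was at 3.40, 2.57 and 3.88 CPM under overexpression. With the control plasmid it was at 3.32, 4.003 and 2.63 CPM, so that the lowest and the highest library of each group lay close to those of the other. The log2 fold change was -0.019 with a 95% interval of -0.60 to 0.56 (edgeR adjusted p 0.990). These values rested on 32 to 48 counts per library, and the interval holds changes of up to 1.48-fold upwards and to 0.66 of the control level downwards.

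DHX58 (ENSG00000108771, chr17:42101404-42112733, minus strand), whose product lacks the signalling domains of the other helicases and tunes their activity, had 1, 3 and 2 counts under overexpression and 0, 2 and 0 counts in the controls. No library exceeded 3 counts, the number that a count of 0 allows. It was therefore barely detected in either group, and no fold change is given.

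TLR3 (ENSG00000164342, chr4:186069152-186088069, plus strand) had 14, 11 and 8 counts under overexpression and 10, 13 and 7 counts in the controls. In CPM these were 0.991, 0.785 and 0.646 against 0.923, 1.11 and 0.576, and replicate 3 was lowest in both groups. The log2 fold change was -0.092 with a 95% interval of -0.96 to 0.78 (edgeR adjusted p 0.967), the widest interval among the tested members. It holds changes of up to 1.72-fold upwards and to 0.51 of the control level downwards, and these bounds are not a limit of detection.

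The adaptors were measured at unequal levels. MAVS (ENSG00000088888, chr20:3846799-3876123, plus strand), through which both RIG-I and MDA5 signal, was at 253, 289 and 298 CPM under overexpression. In control replicates 1 to 3 it was at 289, 169.6 and 298 CPM. Control replicate 2 stood apart, since the mean of control replicates 1 and 3 was 1.73 times its value. The remaining 5 libraries lay between 253 and 298 CPM. The means were 280 ± 23.9 and 252 ± 71.8 CPM (SD, n = 3 each), giving a log2 fold change of 0.15 with a 95% interval of -0.30 to 0.60 (edgeR adjusted p 0.878). Without control replicate 2 the log2 fold change was -0.070, so the sign of this value rests on that library.

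TMEM173 (ENSG00000184584, chr5:139475534-139482935, minus strand) had 9 to 15 counts per library. It was at 0.850, 0.856 and 1.21 CPM under overexpression and at 0.831, 1.19 and 0.905 CPM in the controls, with 1 library near 1.2 CPM in each group. The log2 fold change was -0.016 with a 95% interval of -0.78 to 0.75 (edgeR adjusted p 0.994). MB21D1 (cGAS), the DNA sensor upstream of it, had 3, 1 and 2 counts against 0, 4 and 2 and was chosen for naming after its values were seen.

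Of the effectors, OAS3 and EIF2AK2 gave the narrowest intervals among the tested members. EIF2AK2 (ENSG00000055332, chr2:37099210-37157065, minus strand), the gene of PKR, was at 48.2, 60.0 and 62.5 CPM under overexpression and at 74.3, 56.3 and 60.8 CPM in the controls. Overexpression replicate 1 was the lowest library and control replicate 1 the highest, and the other 4 lay between 56.3 and 62.5 CPM. The means were 56.9 ± 7.65 and 63.8 ± 9.36 CPM (SD, n = 3 each). The log2 fold change was -0.16 with a 95% interval of -0.49 to 0.16 (edgeR adjusted p 0.828), the most negative value among the tested members. Without control replicate 1 it was -0.040, and without overexpression replicate 1 it was -0.058. Its exons share 35 bases with GPATCH11 and 401 with the pseudogene AC007899.1, both on the opposite strand. GPATCH11 had 196 to 252 counts per library and the pseudogene at most 1. The handling of strand is not given in the sources used here.

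OAS1 (ENSG00000089127, chr12:112906777-112933222, plus strand) was at 5.73, 7.92 and 8.65 CPM under overexpression and at 5.63, 8.01 and 8.72 CPM in the controls. The 3 values of the groups were nearly equal in size, with 1 low library each. Its exons share 92 bases with the antisense gene AC004551.1, which had 0 counts in all 6 libraries. The log2 fold change was -0.0085 with a 95% interval of -0.53 to 0.52 (edgeR adjusted p 0.995). OAS3 (ENSG00000111331, chr12:112938352-112973249, plus strand), its neighbour on the chromosome, was at 33.6, 40.5 and 38.2 CPM under overexpression and at 37.3, 38.8 and 38.2 CPM in the controls. The highest library was 1.21 times the lowest, the smallest spread among the tested members. The log2 fold change was -0.025 with a 95% interval of -0.27 to 0.22 (edgeR adjusted p 0.968). This interval holds no change beyond 1.16-fold upwards or to 0.83 of the control level downwards.

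**Figure D2:**
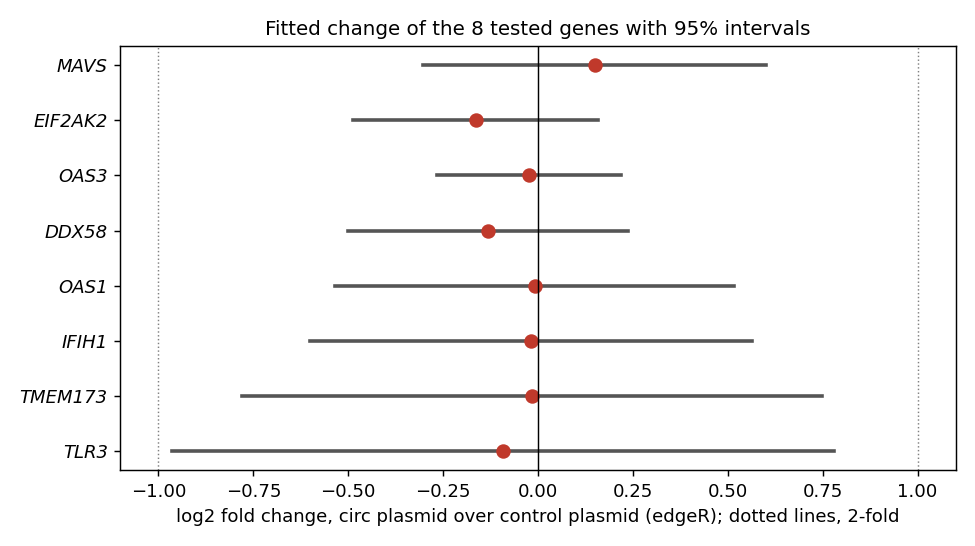
Log2 fold change of the 8 tested genes, overexpression over control (x axis), with 95% intervals from edgeR; dotted lines mark a 2-fold change. All 8 intervals include 0 and none reaches 2-fold, the widest being that of TLR3 (-0.96 to 0.78) and the narrowest that of OAS3 (-0.27 to 0.22).

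Levels of different genes were compared per kilobase of merged exons, as CPM per kilobase over all 6 libraries. MAVS came first with 22.6 (range 14.4 to 25.3), 4.03 times the level of EIF2AK2 at 5.61 (4.48 to 6.91). OAS3 followed at 4.58 (4.08 to 4.91), then DDX58 at 2.04 (1.69 to 2.25) and OAS1 at 1.505 (1.14 to 1.76). IFIH1 was at 0.646 (0.503 to 0.784), TMEM173 at 0.253 (0.216 to 0.315), TLR3 at 0.125 (0.0857 to 0.165) and DHX58 at 0.0268 (0 to 0.0557). The ranges of neighbours in this order overlapped for EIF2AK2 and OAS3 and for DDX58 and OAS1, although the first of each pair was higher within all 6 libraries. DDX58 was 3.16 times IFIH1 per kilobase, and OAS3 was 3.04 times OAS1.

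The deposited FPKM values, which use other gene lengths, gave the same order of means. The ratios between genes changed with these lengths, so those given above hold for CPM per kilobase of merged exons only. On that scale MAVS was at 11.9, EIF2AK2 at 4.23 and OAS3 at 3.35 FPKM. TMEM173 and TLR3, at 0.0915 and 0.0792 FPKM, then overlapped, and TMEM173 was higher in 4 of 6 libraries only. OAS1 (0.831 FPKM) overlapped with IFIH1 (0.581 FPKM) on this scale, and DDX58 (1.97 FPKM) no longer overlapped with OAS1.

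**Figure D3:**
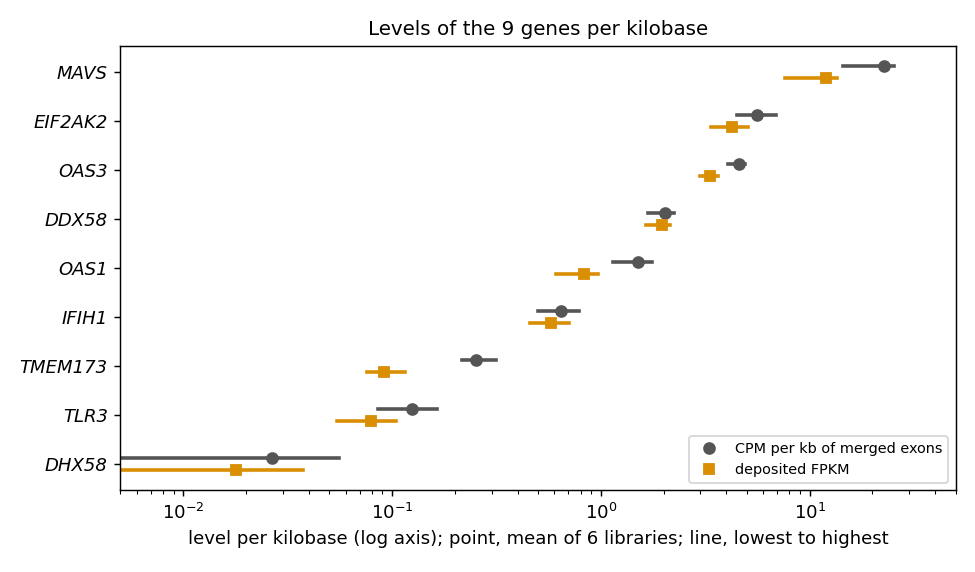
Level of the 9 genes per kilobase on a log axis (x axis), as CPM per kilobase of merged exons (circles) and as deposited FPKM (squares); points are means of 6 libraries and lines run from the lowest to the highest. The order is the same on both scales, from MAVS at 22.6 CPM per kilobase to DHX58 at 0.0268, whose lines reach the left edge because 2 libraries are at 0.

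The rest of the pathway was read from 6 lists with 142 genes, of which 107 were tested. edgeR called 0 of them at an adjusted p under 0.05, as did DESeq2 and limma on FPKM values, and the smallest adjusted p by edgeR was 0.797. 3 of the 107 (2.80%) had an unadjusted p under 0.05, beside 5.5% of all genes tested, namely JAK1, TRAF6 and TRAF3, the last of which was named after its value was seen. The groups did not overlap for 14 of the 107 (13.1%), near the 12.9% of all genes tested. By list this held for 6 of 17 sensors and cofactors and 3 of 24 adaptors, kinases and transcription factors. It held for 2 of 15 interferon and receptor genes, 2 of 17 in the OAS and PKR arms and 1 of 29 interferon-stimulated effectors. For NF-kappaB and chemokine output it was 0 of 5, and differences between lists were not tested. Over the 107, values were above zero for 50 and below zero for 57, with a median log2 fold change of -0.015.

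Among other sensors and their cofactors, 17 of 25 listed genes were tested, with 8 values above and 9 below zero and a median log2 fold change of -0.024. DDX3X, a helicase that assists MAVS signalling, was at 477 ± 166 CPM under overexpression and 578 ± 187 CPM in the controls (SD, n = 3 each). DDX21 was at 465 ± 20.4 and 518 ± 37.4 CPM, and DHX15 was at 422 ± 13.9 and 429 ± 26.8 CPM. TARBP2, a partner of Dicer that also restrains PKR, had the smallest unadjusted p of the list (0.059), with 35.2 ± 1.08 against 28.2 ± 5.39 CPM and a log2 fold change of 0.32. RNF135, a ubiquitin ligase for RIG-I that was named after its values were seen, had 0 counts in all 6 libraries.

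For adaptors, kinases and transcription factors, 24 of 25 listed genes were tested, with 15 values above and 9 below zero and a median log2 fold change of 0.029. TOMM70A, MFN2 and MFN1, proteins of the mitochondrial surface on which MAVS acts, had log2 fold changes of 0.046, 0.026 and 0.0010. Their 95% intervals stayed within -0.19 and 0.23. TRAF6, a ligase downstream of MAVS and of Toll-like receptors, had an unadjusted p of 0.0455 and a log2 fold change of -0.28, with 12.8 ± 0.338 against 15.5 ± 0.938 CPM (edgeR adjusted p 0.797). TRAF3, which links MAVS to the kinases that activate IRF3, was at 11.3, 15.2 and 10.7 CPM under overexpression and 20.3, 15.3 and 14.7 CPM in the controls.

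No count fell on the interferon genes IFNB1, IFNL1, IFNL2 and IFNL3 in any of the 6 libraries, which allows up to 0.212 to 0.277 CPM in a library. Of the 20 genes for interferons, receptors and their signalling, 15 were tested, with 6 values above and 9 below zero and a median of -0.015. JAK1, a kinase bound to interferon receptors, was at 158 ± 5.14 against 187 ± 13.9 CPM, a log2 fold change of -0.25 with a 95% interval of -0.45 to -0.044. Its unadjusted p was 0.0226 and its edgeR adjusted p 0.797. TYK2, another kinase of these receptors, was at 61.0 ± 4.72 and 59.4 ± 3.18 CPM.

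In the OAS and PKR arms, 17 of 20 listed genes were tested, with 8 values above and 9 below zero and a median log2 fold change of -0.013. ATF4, whose translation rises when PKR and related kinases act, was at 580 ± 27.1 and 546 ± 48.1 CPM. ILF2 was at 541 ± 95.6 and 537 ± 123 CPM. ADAR, which edits paired RNA and so hides it from MDA5 and PKR, had the smallest unadjusted p (0.101), with 367 ± 13.8 against 416 ± 45.5 CPM. OAS2 and OASL, relatives of the member OAS genes, had 1 and 2 counts over all 6 libraries. Both were named after their values were seen.

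Among interferon-stimulated effectors, 29 of 40 listed genes were tested, with 12 values above and 17 below zero and a median log2 fold change of -0.047. MX2, a GTPase that blocks virus entry to the nucleus, was at 121 ± 1.49 and 125 ± 12.3 CPM. DTX3L was at 43.5 ± 0.79 and 46.2 ± 3.09 CPM, and PARP14 at 37.6 ± 3.66 and 40.0 ± 6.17 CPM. UBE2L6, the conjugating enzyme for ISG15, had the smallest unadjusted p (0.0701), with 28.2 ± 3.72 against 23.3 ± 1.83 CPM. For NF-kappaB and chemokine output, 5 of 12 listed genes were tested, with 1 value above and 4 below zero and a median of -0.24. ICAM1 was at 258 ± 9.80 and 283 ± 31.7 CPM, TNFAIP3 at 13.2 ± 0.851 and 15.8 ± 2.27 CPM, and CXCL8 at 11.6 ± 1.22 and 13.8 ± 3.34 CPM. None of the 5 had an unadjusted p under 0.05, and without control replicate 3 the median was -0.033.

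**Figure D4:**
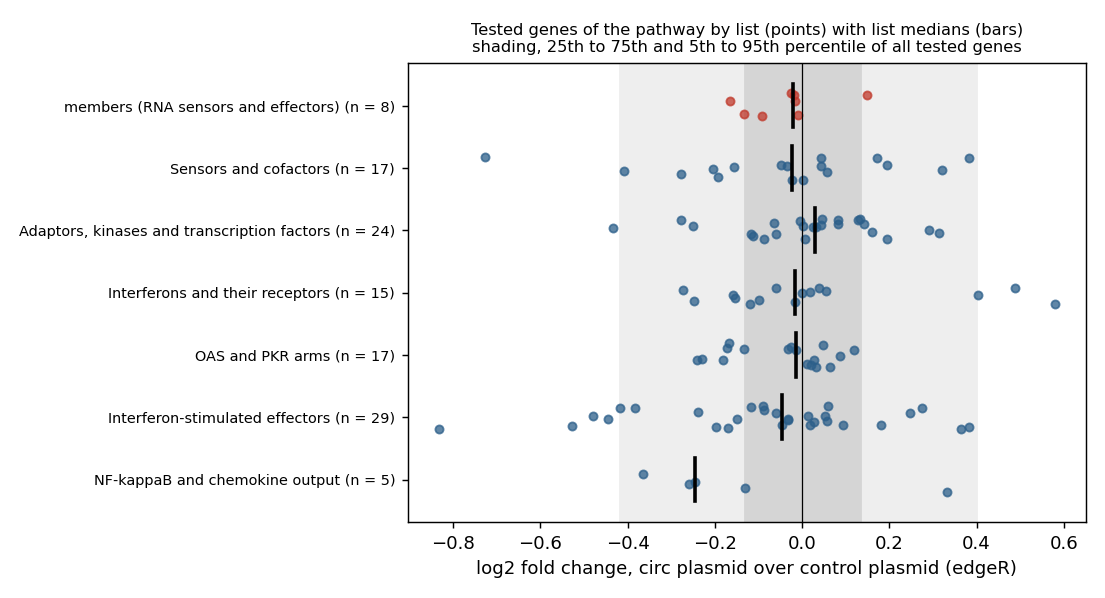
Log2 fold change, overexpression over control (x axis), of the 8 tested members and of the tested genes of 6 pathway lists (rows); points are genes and bars are list medians. Shading shows the 25th to 75th and the 5th to 95th percentile of all 15055 tested genes (-0.13 to 0.14 and -0.42 to 0.40), and the members lie between -0.16 and 0.15.

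The promoter match described above was set beside these changes. Of the pathway genes outside the members, 115 had a promoter sequence and 30.4% of these held the match. In the list of interferon-stimulated effectors 70.6% did. The 23 tested pathway genes with a match had a median log2 fold change of -0.032, with 10 values above and 13 below zero. The 69 without a match had a median of -0.033, with 32 above and 37 below. A single promoter window was used per gene, and some windows lay away from the start of the gene's coordinates. That of JAK1 was chr1:65067697-65067996, while the gene's coordinates were chr1:64833229-64966504 on the minus strand. The split therefore describes the windows searched only. Among members, the 4 with a match had log2 fold changes from -0.16 to -0.019. MAVS and OAS1, without a match in the windows searched, had 0.15 and -0.0085.

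As a description of likeness, the mean of the 8 tested members, each standardized over the 6 libraries on the log2 CPM scale, was compared with every other tested gene. It was -0.50, -0.23 and 0.40 SD in overexpression replicates 1 to 3 and 0.15, 0.36 and -0.18 SD in control replicates 1 to 3. The members did not share one profile. Pearson correlations between pairs of them ran from -0.753 (TLR3 and MAVS) to 0.739 (DDX58 and IFIH1). The genes most similar to the mean were MAN2A1, GPRIN3 and SYS1-DBNDD2, with Pearson correlations of 0.983, 0.979 and 0.979 over the 6 libraries. None of these 3 is in the pathway lists, and among so many genes and so few libraries high values arise readily.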

How the data were processed

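The authors deposited 1 table with whole-number read counts, not normalized, and FPKM per gene and library. The submitters' processing notes name TopHat2 2.0.9 and hg38. The counting tool, strand setting and annotation release are not given in the sources used here. Of the gene IDs, 98.5% were in GENCODE 29 (GRCh38), and all 9 members had the same coordinates there. The FPKM gene lengths are the authors' own.

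Groups and replicate numbers came from the sample titles. Counts were tested with edgeR 4.0.16 (R 4.3.3): low genes were removed by filterByExpr (minimum count 10), TMM factors were used, and glmQLFit and glmQLFTest were run on 15055 genes by group alone. CPM used TMM library sizes. Standard errors and 95% intervals came from the F statistic. Permutation tests (scipy 1.17.1) used log2(CPM + 0.5). Alternatives were DESeq2 1.42.0, limma 3.58.1 on log2(FPKM + 1), restricted to genes reaching 1 FPKM in 3 libraries, RLE and upper-quartile normalization, no filter, a block for replicate number, and omission of each library in turn. The fits were tested on simulated data. The simulated counts covered only genes that passed the filter, and the rates were pooled over their levels. They are therefore not rates for genes with few counts. On these data edgeR called 62.6% of 2-fold changes and 98% of 4-fold changes at an adjusted p under 0.05. It also called 15 of 14603 unchanged genes.

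Members and lists were chosen with earlier results of these data known. The text names all members, SOX5, the interferon genes, and per list the 3 tested genes with the highest mean CPM and that with the smallest p, except for genes that are not reported here. Intervals on counts of 0 (3 counts) cover counting error only, because PCR duplicates were not marked by molecular identifiers. Replicates differed beyond sampling noise (chi-square of 10.1 to 20.9 per degree of freedom).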

Additional observations from a re-analysis of the deposited data

How the results depend on the processing

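0 members and 0 pathway genes were called under any of the 12 alternatives that gave them a value. DHX58 was not tested in the main analysis, and IFIH1, TLR3, OAS1 and TMEM173 had no value under limma on FPKM. Over these alternatives the members' log2 fold changes ran from -0.32 to 0.29, the smallest adjusted p was 0.688, and 79 of 92 values kept their direction. Same-numbered libraries did not deviate together (correlations of -0.029, -0.012 and -0.031 across genes). With a replicate block the members' median was -0.024, with 0 called. Depth limits DHX58 most, with 0 to 3 counts per library, and among tested members TLR3 and TMEM173, with 7 to 15. Over all genes edgeR called 6, DESeq2 27, and the fits that left out one library 4 to 16.

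The members' median ran from -0.140 (without overexpression replicate 3) to 0.0162 (without control replicate 2) when one library was left out. IFIH1 ran from -0.163 to 0.140 and turned without overexpression replicate 2 (0.130) or control replicate 2. TLR3 ran from -0.321 to 0.124 and turned without overexpression replicate 3 (0.0372) or control replicate 2. MAVS ran from -0.0704 (without control replicate 2) to 0.288. OAS1 ran from -0.171 to 0.149, turned without overexpression replicate 1, control replicate 2 (0.0436) or control replicate 3 (0.121), and was 0.0079 with upper-quartile normalization. OAS3 ran from -0.0867 to 0.0477 (without overexpression replicate 1). TMEM173 ran from -0.194 to 0.153 and turned without overexpression replicate 1 (0.0725), overexpression replicate 2 (0.0664) or control replicate 2. DDX58 ran from -0.203 to -0.0397 (without overexpression replicate 2) and EIF2AK2 from -0.247 to -0.0397 (without control replicate 1), with no change of direction.

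Of the lists, the median of adaptors, kinases and transcription factors was 0.0444 with upper-quartile normalization, 0.0615 under limma, and -0.0124 to 0.0549 when one library was left out. NF-kappaB and chemokine output ran from -0.299 to -0.0329. Of the named pathway genes, 225 of 240 values kept their direction. DHX15 turned to 0.0016 under limma and MFN1 to -0.0012 with RLE. Leaving out one library moved DHX15 from -0.0658 to 0.0234, MFN2 from -0.0336 to 0.0756, MFN1 from -0.0177 to 0.0407, TYK2 from -0.0148 to 0.0974, ILF2 from -0.132 to 0.213, MX2 from -0.0998 to 0.0374 and PARP14 from -0.206 to 0.0084. Beyond the libraries left out, the cause was not tested.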

Other observations

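35 of the 142 pathway genes had too few counts for the test. 14 of these were at 0 in all 6 libraries, 12 had counts but never more than 3 in a library, and 9 exceeded 3 counts somewhere, with a highest count of 16 for IFI27. The genes named here and in the paragraphs that follow were chosen after their values were seen. IFI27, among the genes most strongly raised by interferon in liver cells, had 7, 16 and 5 counts under overexpression and 7, 5 and 15 counts in the controls. IRF7, the factor that amplifies interferon production, had 1, 4 and 0 counts against 0, 2 and 2.

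Of the 21 pathway genes under the filter with any count, 2 (9.52%) had more counts in each overexpression library than in any control library, and 0 had fewer. Over all 12031 genes under the filter with any count, 3.03% had more and 1.07% had fewer. These counts were not scaled to library totals, which were higher in each overexpression library than in any control library. IFI44L, an interferon-stimulated gene, had 3, 8 and 1 counts under overexpression and 0, 0 and 0 in the controls. IL6, a cytokine gene downstream of NF-kappaB, had 2, 11 and 3 counts against 1, 1 and 0. Overexpression replicate 2 held most of the counts of both genes. Without a filter edgeR gave an unadjusted p of 0.0116 for IFI44L and 0.0307 for IL6, with an adjusted p of 0.797 for each, and DESeq2 gave an unadjusted p of 0.037 and 0.0824.

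MEX3C, which encodes a ubiquitin ligase reported to act on RIG-I, was at 9.34, 33.4 and 50.8 CPM in overexpression replicates 1 to 3 and at 51.9, 51.4 and 51.3 CPM in control replicates 1 to 3. The groups did not overlap, as held for 12.9% of all genes tested, but their nearest values were 50.8 and 51.3 CPM. Overexpression replicate 1 was far lower than the other libraries of its group. The log2 fold change was -0.73 with a 95% interval of -1.79 to 0.33, and the unadjusted p by edgeR was 0.154.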
